A study of Mus musculus with 80 samples.

Results

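The 85 genes described here encode proteins of the cytosolic ribosome. They were chosen by name from an expression table of 25965 rows, as names that start with Rpl or Rps and a digit, together with Rplp0, Rplp1 and Rplp2, leaving out names with -ps (processed copies) and the Rps6k kinases. The rule itself uses no expression value, though it was chosen with earlier results of these data known. The rule took in 8 paralogs (Rpl3l, Rpl7l1, Rpl10l, Rpl22l1, Rpl36al, Rpl39l, Rps27l and Rps4y2, a row that RefSeq lists as Rps4l) and Rps19bp1, which encodes a binding partner of RPS19 and not a ribosomal protein. The other 76 are called subunit genes below. E14 cells, a wild-type mouse embryonic stem cell (ESC) line, were grown in serum medium with the cytokine LIF and then moved to 2i, a serum-free medium with LIF and inhibitors of the kinases MEK and GSK3. RNA-seq covered 12 of the 80 samples of the series, 3 replicates each in serum and after 6, 24 and 72 h in 2i, all of the same line. ChIP-seq for H3K9me2, the dimethyl mark on lysine 9 of histone H3, covered 3 media (serum, cells 24 h in 2i and cells kept long in 2i, called LT2i), with 2 bound libraries and 1 input for each. The design asks how the cells change as they pass from serum to 2i, and the question here is what the ribosomal protein genes did.

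The cytosolic ribosome has a large and a small subunit, and each of its proteins is needed in nearly equal numbers. Their genes are among the most highly transcribed of any growing cell. Most of their mRNAs start with a C followed by a run of pyrimidines, the TOP motif, through which mTOR signalling sets how well they are translated, and Myc is known to raise the output of many genes that build ribosomes. In ESCs, 2i is known to lower Myc.

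Because the TOP motif lies at the start of the mRNA, the bases around the annotated start are shown for 10 members, each with the 10 bases before the start and the first 20 from it. Capitals mark spellings typical of a TOP start on the sense strand, which are CTTTC, the same with a further C at its end, and the motif CTCTTT. A match in this window was found in 17 of the 63 members with a promoter. Further members without a match, such as Rps3 (1.77 at 24 h), also rose and are not shown. The members shown with a match come first, of which Rpl39l did not pass the test at 24 h. In Rpl39l the marked bases all lie before the annotated start, outside the annotated mRNA. The 4 without one in this window that follow are Rpl39, which rose most at 24 h and has CTTTC elsewhere within 50 bases of a start, and 3 of those that did not pass the test.
Rpl28: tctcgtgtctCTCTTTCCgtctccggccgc
Rpl18: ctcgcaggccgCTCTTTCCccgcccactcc
Rps6: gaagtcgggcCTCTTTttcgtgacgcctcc
Rpl38: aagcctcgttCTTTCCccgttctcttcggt
Rps26: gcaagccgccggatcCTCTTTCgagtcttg
Rpl39l: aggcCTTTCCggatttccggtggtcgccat
Rpl39: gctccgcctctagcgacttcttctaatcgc
Rpl10l: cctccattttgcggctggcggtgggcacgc
Rps19bp1: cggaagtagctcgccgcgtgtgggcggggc
Rpl7l1: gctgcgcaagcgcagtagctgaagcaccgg
In RefSeq's GRCm38.p6 annotation these windows are chr7:4792955-4792984 (+ strand) for Rpl28, chr7:45718061-45718090 (+) for Rpl18, chr4:86857348-86857377 (-) for Rps6, chr11:114668570-114668599 (+) for Rpl38, chr10:128626487-128626516 (-) for Rps26, chr16:10170218-10170247 (+) for Rpl39l, chrX:37085203-37085232 (-) for Rpl39, chr12:66284382-66284411 (-) for Rpl10l, chr15:80264287-80264316 (-) for Rps19bp1 and chr17:46782637-46782666 (-) for Rpl7l1. The last 20 bases of each lie in the first exon.

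RefSeq gave 75 promoters for 63 of the 85 members. CTTTC stood on the sense strand within 50 bases of the start in 48.0% of the member promoters, against 12.8% of all 32851 promoters and 10.1% of the 10660 promoters of genes that entered the expression test. CTTTCC, which contains CTTTC, stood there in 30.7% of member promoters and 4.7% of all, and CTCTTT in 29.3% and 4.0%. CCGGAA, the core of an ETS factor site, was found on either strand from 250 bases before to 50 after the start in 45.3% of member promoters, 14.9% of all and 27.6% of those of tested genes. CACGTG, the E-box that Myc binds, was found in 10.7% of member promoters, 7.2% of all and 10.6% of those of tested genes, so the member share lay close to the latter. The TATA box spelling TATAAA, sought between 45 and 15 bases before the start, was found in 1 member promoter (1.3%, against 2.1% of all). Some promoters of a gene overlap, and an annotated start may lie some bases from the start used in ESCs.

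All 85 members passed the filter on low values (above 0 on the log2 scale in 3 or more libraries) and entered one limma fit with 12306 genes. The deposited values are log2 levels per gene length and per library depth, shifted to share their 75th percentile (2.51 in each library), so total reads per library are unknown. Libraries differed in how the level moved with gene span, the length of the gene on the chromosome. The slope of each library's deviation from the serum mean ran from -0.04 to 0.07 log2 units per 10-fold span in serum and at 6 h. It was -0.65, -0.54 and -0.18 in 24 h replicates 1, 2 and 3, and -0.08, -0.36 and 0.03 at 72 h. 24 h replicates 1 and 2 and 72 h replicate 2 therefore stood apart from the other 9 libraries, short genes being high in them. 24 h replicate 3 had a weaker trend of the same direction, also outside the range of serum and 6 h. In it the median deviation from serum was 0.19 for the shortest 20% of genes and -0.17 for the longest 20%. The members are short: their median span was 3232 bp against 20180 bp over all genes tested, and 76 of 85 were among the shortest 20% of genes tested (up to 6013 bp). The counts and the main genes below are therefore also given without these 3 libraries. The 24 h values left in that fit come from replicate 3 alone and are not free of the span trend.

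In serum the members spanned a wide range of levels per length. The 5 highest were Rplp1 (10.25 ± 0.07 on the log2 scale, SD, n = 3), Rpl4 (10.23 ± 0.03), Rpl8 (10.13 ± 0.12), Rps12 (10.00 ± 0.23) and Rps26 (9.82 ± 0.13). Neighbours in this order did not differ beyond the spread of their replicates. Rplp1 encodes an acidic protein of the stalk that recruits elongation factors, and Rpl4 a large-subunit protein that reaches into the exit tunnel. The median over the 85 was 7.72. The lowest were all paralogs: Rpl39l (4.10 ± 0.41) and Rpl10l (3.71 ± 0.05), both known from the male germ line, and Rpl3l (-1.40 ± 0.27), known from heart and skeletal muscle. Rpl3l was the only member below 0, a low level, though other rows lay lower still, such as Rpl29-ps3 at -3.05.

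After 6 h in 2i no member had passed the test. None of the 85 had an adjusted p under 0.05 in limma, where 9.13% of all genes were higher and 6.48% lower (15.6% in all), and none had an unadjusted p under 0.05, as 26.6% of all genes did. In 1 member the 6 h libraries all lay above serum and in 2 they all lay below, as in 24.1% and 20.3% of all genes. The median member change was -0.06 on the log2 scale (all genes 0.01). Myc, by contrast, lay at 5.22, 5.05 and 5.23 in serum and at 1.25, 1.15 and 1.31 at 6 h, and fell by 3.93 (SE 0.11, limma adjusted p = 9.755e-09). Mycn fell by 1.30 (SE 0.11, limma adjusted p = 1.296e-05).

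After 24 h, 79 of the 85 members were higher than in serum and none was lower (limma, adjusted p under 0.05). Among all genes tested 34.2% were higher and 29.1% lower (63.3% in all), and 67.3% had an unadjusted p under 0.05, as the same number of members (79) did. The median member change was 1.16 on the log2 scale, 2.23-fold, against a median of 0.11 over all genes. All 76 subunit genes were among those called, with changes from 0.54 (Rpl29) to 2.08 (Rpl39). The 6 members that were not called were Rps19bp1 and 5 of the paralogs. In 79 members every 24 h library lay above every serum library, as it did in 34.4% of all genes, and in none did every 24 h library lie below, as in 30.3% of all genes.

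**Figure D1:**
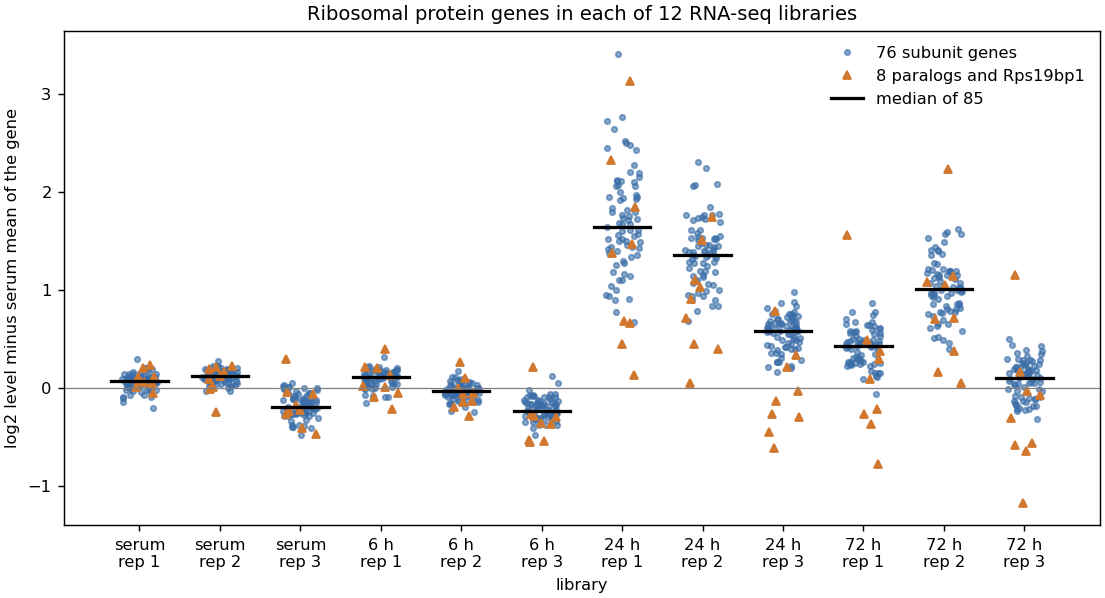
Each point is a gene, plotted by RNA-seq library (x axis) as its log2 level minus its mean in serum (y axis), for 76 subunit genes (circles) and 8 paralogs with Rps19bp1 (triangles); bars are the medians over 85 genes. The medians lay at 1.64, 1.36 and 0.57 in the 24 h replicates and at 0.43, 1.00 and 0.10 in the 72 h replicates, against -0.23 to 0.12 in serum and at 6 h.

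The size of the rise differed between the 24 h replicates. The median deviation from serum was 1.64 in replicate 1, 1.36 in replicate 2 and 0.57 in replicate 3, the same order as their slopes on gene span. Without 24 h replicates 1 and 2 and 72 h replicate 2, which leaves replicate 3 as the only 24 h library and assumes that it varies like the other groups, 46 members were higher and 2 lower, with a median change of 0.57 (all genes 0.02), where 24.4% of all genes were higher and 25.5% lower. With the span slope of each library as a covariate, 8 were higher and 8 lower (24.6% and 26.7% of all genes), and the median was 0.050, so the call of a general rise ended there. That slope differs between times as well as between replicates, and the fit rests on how it differs among replicates. With a smooth span trend removed from each library, 73 were higher and 2 lower (30.9% and 31.9% of all genes). The median was then 0.74 (all genes -0.0034). The shortest 20% of genes had a median change of 0.53 at 24 h, with 48.1% called higher, whereas 71 of the 76 members among them were called, with a median of 1.16. The longest 20% had a median of -0.41. How far the span trend took part in the members' rise was not tested beyond these fits.

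**Figure D2:**
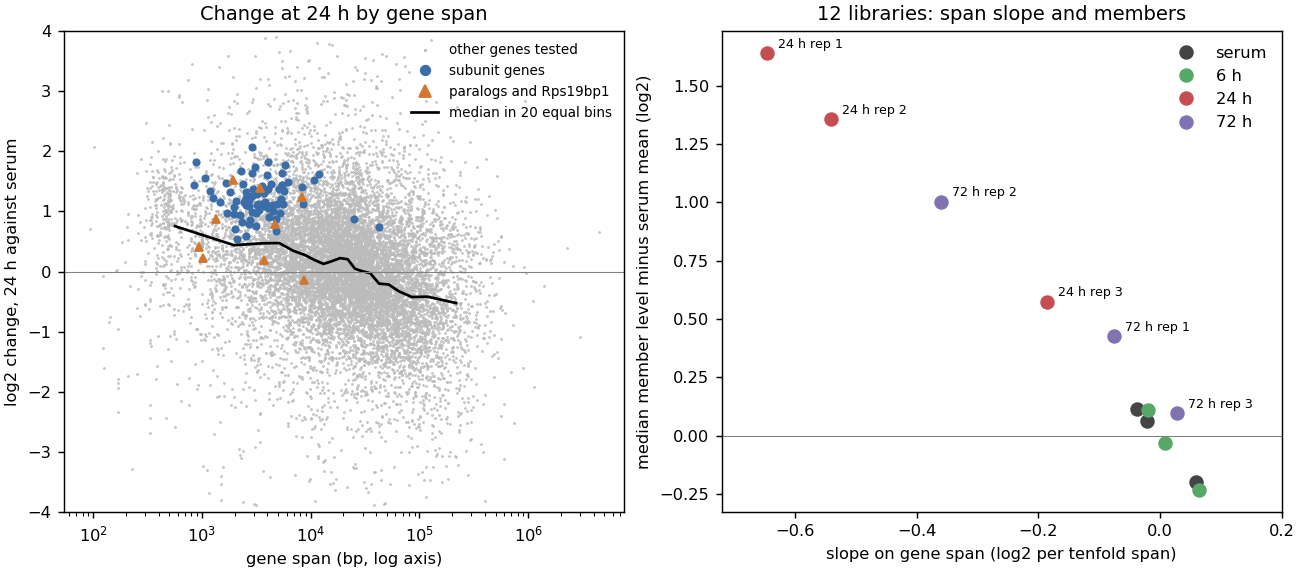
Left, log2 change at 24 h against serum (y axis, shown from -4 to 4) by gene span in bp (log x axis) for genes tested, with the median in 20 equal bins (line); right, for the 12 libraries, the median member level minus serum (y axis) by the slope on gene span (x axis). The members lie mostly above the line at their span, and the 3 libraries with slopes of -0.65, -0.54 and -0.36 hold the highest member levels (1.64, 1.36 and 1.00).

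Among the members themselves the change at 24 h had a weak correlation with span (Spearman's rho 0.06, n = 85 genes measured in the same libraries) and with the level in serum (rho -0.06, or -0.21 over the 76 subunit genes alone), which is given as a description. The 32 members with CTTTC within 50 bases of a start had changes from 0.59 to 2.08 (median 1.30), and the 31 members with a promoter but without it had changes from -0.14 to 1.77 (median 1.11), so the ranges overlapped widely.

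Rpl39, a small protein that lines the exit tunnel of the large subunit, showed the largest rise at 24 h. It lay at 5.75, 5.90 and 5.82 in serum and at 9.23, 8.07 and 6.40 at 24 h. All 24 h libraries were above all serum libraries, but replicate 1 was far above replicate 3. The change was 2.08 (SE 0.58, limma adjusted p = 0.008658), 0.57 without the 3 libraries that stood apart (limma adjusted p = 0.0341) and -0.20 with the span slope as a covariate. Rps14, a protein of the platform of the small subunit, lay at 7.75, 7.84 and 7.31 in serum and at 10.27, 9.94 and 8.18 at 24 h (change 1.83, SE 0.52, limma adjusted p = 0.009742). Rps27, a zinc-finger protein of the small subunit, lay at 8.83, 9.12 and 8.81 in serum and at 11.68, 10.98 and 9.58 at 24 h (change 1.83, SE 0.47, limma adjusted p = 0.005901). In these genes too the spread among the 24 h replicates was wider than among the serum replicates, and replicate 3 was lowest. The change without the 3 libraries was 0.54 for Rps14, which was not called (limma adjusted p = 0.0948), and 0.66 for Rps27 (limma adjusted p = 0.0211). With the covariate both changes turned negative, to -0.28 for Rps14 and -0.037 for Rps27.

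**Figure D3:**
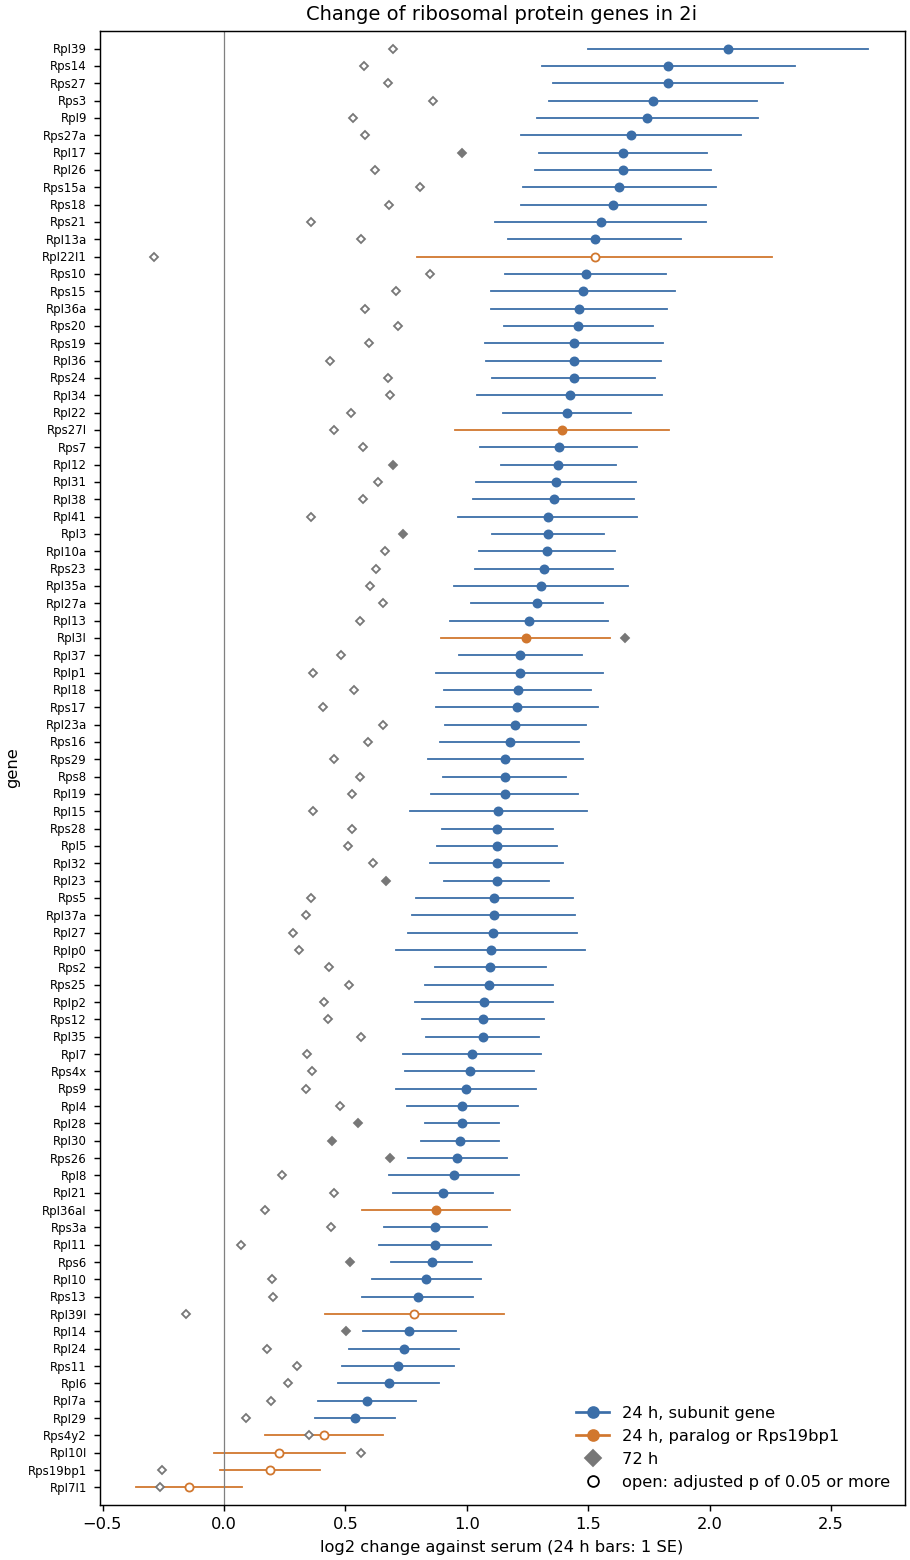
Log2 change against serum (x axis) for 84 of the 85 genes (y axis, ordered by the change at 24 h), at 24 h (circles, with 1 SE) and 72 h (diamonds); open symbols did not pass an adjusted p of 0.05. The subunit genes ran from 0.54 to 2.08 at 24 h, and the open circles are Rps19bp1 and 5 paralogs.

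By part of the ribosome the counts were as follows. Of the 43 subunit genes of the large subunit (without paralogs and the stalk) all 43 were called at 24 h, with a median change of 1.19 (range 0.54 to 2.08). Of the 30 of the small subunit all 30 were called, with a median of 1.19 (0.72 to 1.83). Without the 3 libraries that stood apart 29 of the large and 16 of the small subunit were called, all higher, with medians of 0.58 and 0.62, and with the span slope as a covariate the large subunit had 6 higher and 1 lower and the small subunit 2 higher and none lower. Differences between the parts were not tested. The stalk genes Rplp0, Rplp1 and Rplp2 rose by 1.10, 1.22 and 1.07 (SE 0.39, 0.34 and 0.28). Their changes without the 3 libraries were 0.16, 0.49 and 0.43, and only Rplp2 was called (limma adjusted p = 0.0354). Rplp0, which anchors the stalk and often serves as a reference gene for qPCR, lay at 8.93, 8.96 and 8.56 in serum and at 10.50, 10.26 and 8.98 at 24 h. Its 24 h replicate 3 was barely above the highest serum library, and its call (limma adjusted p = 0.02819) was lost without serum replicate 1, serum replicate 3, 24 h replicate 1 or 24 h replicate 2. With the covariate it was called lower (-0.43, limma adjusted p = 0.0114).

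Rpl5 and Rpl11, which bind 5S rRNA together and can hold back the p53 ligase MDM2 when ribosome assembly fails, rose by 1.13 (SE 0.25, limma adjusted p = 0.002304) and 0.87 (SE 0.23, limma adjusted p = 0.006498). Rpl11 lay at 6.80, 6.83 and 6.85 in serum and at 8.12, 7.80 and 7.18 at 24 h, with no overlap. Leaving out the 3 libraries gave changes of 0.60 for Rpl5 and of 0.35 for Rpl11, both still called (limma adjusted p = 0.0356 and 0.0321), and with the covariate neither was called. The difference in Mdm2 was 0.12 (SE 0.10, limma adjusted p = 0.3249), and Cdkn1a, a p53 target that other signals also raise, rose by 2.30 (SE 0.13, limma adjusted p = 2.038e-07). Cdkn1a had already risen by 1.37 at 6 h (SE 0.13, limma adjusted p = 3.204e-05), when no member had passed the test. A link between these genes and the members was not tested. Rps19, the gene first linked to Diamond-Blackfan anaemia, rose by 1.44, and Rps3, at the mRNA entry channel, by 1.77. Rpl10a rose by 1.33, Rpl38, known for its part in the translation of Hox mRNAs, by 1.36, and Rpl41, the shortest ribosomal protein, by 1.33. SEs of these 5 were 0.28 to 0.43 and all 5 were called. All 5 changes were smaller without the 3 libraries, at 0.56 for Rps19, 0.75 for Rps3, 0.74 for Rpl10a, 0.58 for Rpl38 and 0.64 for Rpl41, and Rps3 and Rpl41 were no longer called (limma adjusted p = 0.0627 and 0.07). With the covariate none of the 5 was called.

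Rps6, the small-subunit protein phosphorylated by S6 kinases, moved less but more evenly. It lay at 8.18, 8.14 and 7.80 in serum and 8.25, 8.10 and 7.88 at 6 h. Its 24 h values were 8.98, 8.99 and 8.72, and its 72 h values 8.67, 8.69 and 8.33. The 24 h replicates differed by less than the serum replicates. Its change was 0.85 at 24 h (SE 0.17, limma adjusted p = 0.001139) and 0.52 at 72 h (SE 0.17, limma adjusted p = 0.02255). The 72 h call was lost without serum replicate 3, 72 h replicate 1 or 72 h replicate 2. Its 24 h change without the 3 libraries was 0.68 (limma adjusted p = 0.0239). Rps6 was 1 of the 8 members that remained higher at 24 h with the span slope as a covariate (0.48, limma adjusted p = 0.033). The others were Rpl12, Rpl22, Rpl23, Rpl28, Rpl3, Rpl30 and Rps26, which were named for this after their values were seen. Among them Rpl28 had the largest change in that fit (0.61, limma adjusted p = 0.00226). Rpl28 lay at 8.06, 8.11 and 8.07 in serum and at 9.08, 9.21 and 8.89 at 24 h, so its 24 h replicates were close to each other.

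Of the 8 paralogs 3 were called higher at 24 h and none lower, against 34.2% and 29.1% of all genes, so the count higher lay near that share. Rpl7l1 lay at 6.26, 6.31 and 5.89 in serum and at 6.28, 6.20 and 5.54 at 24 h (change -0.14, SE 0.22, limma adjusted p = 0.5807), while its partner Rpl7 rose by 1.02 (SE 0.28, limma adjusted p = 0.008702). The change in Rpl7 was 0.39 without the 3 libraries that stood apart (limma adjusted p = 0.111) and -0.054 with the covariate. The log2 ratio of Rpl7l1 to Rpl7 was -1.62, -1.55 and -1.68 in serum and -3.05, -2.66 and -2.62 at 24 h, without overlap. The ratio of Rpl39l to Rpl39 went from -1.41, -1.56 and -2.19 in serum to -3.65, -3.06 and -2.32 at 24 h, again without overlap, and 24 h replicate 3 lay close to serum replicate 3. The ratio overlapped serum for Rpl3l to Rpl3 (mean -10.13 in serum and -10.22 at 24 h) and for Rpl22l1 to Rpl22 (-1.38 and -1.27). For the other 4 pairs the mean log2 ratio differed from serum by -0.60 to -0.44. At 72 h the ratio lay above all serum libraries for Rpl3l to Rpl3 (difference 0.91) and for Rpl10l to Rpl10 (0.37), below them for Rpl39l (-0.85), Rpl7l1 (-0.60) and Rpl36al (-0.41), and overlapped serum for Rpl22l1 (-0.81), Rps27l (-0.22) and Rps4y2 (-0.013). With 3 libraries against 3, an exact permutation test of such a ratio cannot give a two-sided p below 0.10.

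For Rpl10l, the germ-line paralog of Rpl10, the 24 h value minus serum was 0.23 (SE 0.27, limma adjusted p = 0.4705), and for Rpl39l 0.78 (SE 0.37, limma adjusted p = 0.08238). For Rps4y2 it was 0.41 (SE 0.24, limma adjusted p = 0.1557) and for Rps19bp1 0.19 (SE 0.21, limma adjusted p = 0.4369). Rpl10l and Rps4y2 closely resemble their partners in sequence, so reads may have been split between them and their levels are uncertain. Rpl36al, Rps27l (a p53 target in other cells) and Rpl3l were called higher, by 0.87, 1.39 and 1.24, and the calls of Rpl36al and Rps27l were lost without serum replicate 3, 24 h replicate 1 or 24 h replicate 2. Rpl3l had passed the filter only through libraries of 24 and 72 h, so its call is no independent support for a rise. None of the 3 was called without all libraries that stood apart. In the fit without the 3 libraries that stood apart, both members called lower were paralogs, Rpl10l (-0.45, limma adjusted p = 0.0213) and Rpl7l1 (-0.61, limma adjusted p = 0.0309). With the span slope as a covariate, 6 of the 8 called lower were Rps19bp1 and 5 paralogs, and the others were Rplp0 (-0.43) and Rpl15 (-0.32).

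Rpl22l1, the paralog of Rpl22, was the most variable member. It lay at 5.01, 5.21 and 4.78 in serum. Its 24 h values were 8.13, 6.74 and 4.71, and its 72 h values 4.23, 6.08 and 3.83. The 3 libraries that stood apart were high and the other 2i libraries were at or below the serum level. Its 24 h change of 1.53 had an SE of 0.73 and did not pass (limma adjusted p = 0.08707). Without those libraries it was -0.29 at 24 h and fell by 0.97 at 72 h (limma adjusted p = 0.000589).

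**Figure D4:**
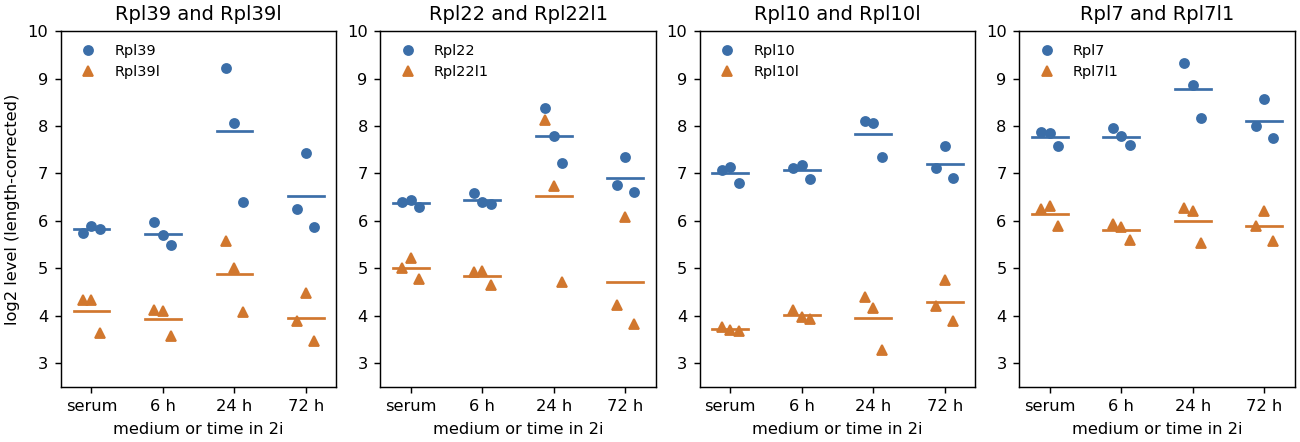
Log2 level per length (y axis) in serum and after 6, 24 and 72 h in 2i (x axis) for 4 subunit genes (circles) and their paralogs (triangles), with 1 point per library, replicates 1 to 3 from left to right, and bars at the mean of 3. Rpl39 and Rpl7 were higher in each 24 h library than in serum, Rpl7l1 was not, and Rpl22l1 ran from 4.71 to 8.13 among the 24 h replicates.

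After 72 h, 11 members were higher than in serum and none lower (limma). Of all genes 25.7% were higher and 26.5% lower (52.2% in all), against 12.9% of the members. The median member change was 0.52 (1.44-fold; all genes -0.01), and 81 of 85 changes were above 0. At an unadjusted p under 0.05 it was 22 members, against 57.8% of all genes. In 35 members every 72 h library lay above every serum library, against 31.3% of all genes, and none had the reverse (32.3%). Those called included Rpl12, Rpl14, Rpl17, Rpl23, Rpl28, Rpl3, Rpl30, Rpl3l, Rps6 and Rps26. Without 72 h replicate 2, whose median deviation was 1.00 against 0.43 and 0.10 in replicates 1 and 3, only 2 were called and the median change was 0.27. In the fits without 1 library 22.1% to 25.9% of all genes were higher and 22.4% to 26.6% lower. The count of members was 2 without serum replicate 3, 3 without 72 h replicate 1, 7 without serum replicate 1 or serum replicate 2, and 26 without 72 h replicate 3. Without all 3 libraries that stood apart it was 22 higher and 3 lower (28.7% and 30.9% of all genes), and with the span slope as a covariate 35 higher and 4 lower (32.1% and 35.6%). The median member change fell to 0.27 and 0.19 in these fits. The members lower in these fits were Rpl22l1, Rps19bp1 and Rpl7l1, joined in the latter by Rpl39l. With the replicate number as a block and all 12 libraries, 38 members were higher and none lower (30.3% and 30.6% of all genes).

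Rpl3l, below 0 in serum, showed the largest change at 72 h. It was above 0 only in 24 h replicate 1 and 72 h replicates 1 and 2. It therefore passed the filter only through the times where it was high, and its test is no independent support for a rise. It lay at -1.45, -1.64 and -1.10 in serum and at 0.16, 0.84 and -0.24 at 72 h, without overlap (change 1.65, SE 0.35, limma adjusted p = 0.002046), a level still far under those of the other members. Rpl17 changed by 0.98 (SE 0.35, limma adjusted p = 0.03298) and Rpl3, which lies close to the peptidyl transferase centre, by 0.74 (SE 0.23, limma adjusted p = 0.01841). Both calls were lost without serum replicate 3, 72 h replicate 1 or 72 h replicate 2, and that of Rpl17 also without serum replicate 1. Without all 3 libraries that stood apart the 72 h changes were 1.36 for Rpl3l, 0.68 for Rpl17 and 0.59 for Rpl3, and all 3 were called. Rpl3 lay at 8.85, 8.87 and 8.48 in serum. Its 24 h values were 10.34, 10.25 and 9.61, and its 72 h values 9.48, 9.77 and 9.16. All 2i libraries of these times lay above serum, and those of 72 h were mostly below those of 24 h.

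Few members passed the test between 24 and 72 h in the main fit, which has no block for the replicate number. The median change from 24 to 72 h was -0.68 (all genes -0.07), and 6 were called lower and none higher (limma), against 15.7% of all genes called lower and 15.8% higher (31.6% in all). At an unadjusted p under 0.05 it was 53 members, against 45.2% of all genes, and in 4 every 72 h library lay below every 24 h library, against 17.1%. The 6 called were Rpl22 (-0.89, SE 0.26), Rpl11 (-0.80, SE 0.23), Rpl37 (-0.74, SE 0.25), Rpl12 (-0.68, SE 0.24), Rps2 (-0.66, SE 0.23) and Rpl30 (-0.53, SE 0.16), of which Rpl30 alone had no overlap between the times. This count rested on single libraries: it was 0 without 24 h replicate 1, 24 h replicate 2, 72 h replicate 1 or 72 h replicate 3, 78 without 24 h replicate 3 and 68 without 72 h replicate 2. Of all genes 24% were higher and 30.4% lower without 24 h replicate 3, and 18.9% and 20.9% without 72 h replicate 2. In the fits with no member called, 10.2% to 12% of all genes were higher and 9.52% to 11.4% lower. Without the 3 libraries that stood apart the median was -0.28, with 1 higher and 2 lower (11.2% and 8.65% of all genes). With the span slope as a covariate it was 0.094, with 9 higher and none lower (19.3% and 19.1% of all genes), so the direction turned. With the replicate number as a block and all 12 libraries, 76 members were lower and none higher, against 25.9% and 21.1% of all genes. The count therefore also depended on whether replicates were paired by number.

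As a share of the summed expression in the table (the sum of 2 to the power of each value), the members took up 8.67%, 9.06% and 7.64% in serum and 8.42%, 8.34% and 7.47% at 6 h. At 24 h the share was 15.6%, 15.5% and 11.1%, and at 72 h it was 10.0%, 12.5% and 8.45%. Serum had a mean of 8.45% ± 0.73 (SD, n = 3) and 6 h one of 8.08% ± 0.52. The 24 h mean was 14.1% ± 2.57 and the 72 h mean 10.3% ± 2.01. All 24 h libraries lay above all serum libraries, and 24 h replicate 3, with the lowest share of its group, was still above the highest serum value. It is the only 24 h library left without those that stood apart, and the 72 h mean without replicate 2 was 9.24%. Mitochondrial rows, part of the same sum, took up 13.0% to 15.7% in serum, 22.2%, 13.7% and 20.3% in the 24 h replicates and 19.2% to 23.4% at 72 h, and their part in the share was not tested. At 72 h replicate 3 fell within the serum range. These levels are relative within a library, and in bulk RNA a change in the number of cells with a given state cannot be told apart from a change in RNA per cell.

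Processed copies are listed in rows of their own, 58 for members and 2 for Rpsa, which the name rule leaves out. Of these 60 rows with -ps names, 57 were tested and 53 were higher at 24 h, with none lower and a median change of 1.20, against 34.2% of all genes higher. With the 3 libraries that stood apart left out, 29 were higher and none lower (median 0.56), and with the span slope as a covariate 9 were higher and 2 lower (median 0.16). These copies are near-identical in sequence to the genes, 31 members have such a row of their own name, and with 50-base reads their reads cannot be told apart with certainty. Among the 54 members without such a row, 48 were called higher at 24 h and none lower. In serum the 57 tested rows had a median level of 4.54, and the highest lay at 8.03 (Rpsa-ps10) and, among copies of members, at 7.68 (Rps26-ps1).

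Genes for other parts of the ribosome and of translation did not all follow. The 4 ribosomal protein genes that the naming rule missed were all higher at 24 h, among them Rpsa (1.29), Fau (1.11) and Gnb2l1 (1.39, the small-subunit scaffold RACK1). Of the 4, 3 were called without serum replicate 3, 24 h replicate 1 or 24 h replicate 2, 2 without all 3 libraries that stood apart and none with the span slope as a covariate. Rpsa, a small-subunit protein once described as a laminin receptor, lay at 8.59, 8.54 and 8.21 in serum and at 10.15, 9.94 and 9.13 at 24 h. Of 14 elongation factors and other TOP mRNAs 7 were higher and 1 lower at 24 h, with a median of 0.49, against 34.2% and 29.1% of all genes. Eef1b2 (1.23), Eef1a1 (1.08), Eif3h (1.07) and Tpt1 (0.93) rose most. Without the 3 libraries that stood apart 1 was higher and 2 lower, with the covariate 1 and 4, with libraries scaled to one sum 3 and 5, and without 24 h replicate 2 the number higher was 4. Of 25 initiation factors 4 were higher and 5 lower, beside the same shares of all genes. Eif4g1, the scaffold of the cap-binding complex, changed most (-1.61, SE 0.18, limma adjusted p = 2.023e-05). The counts for initiation factors were 2 and 6 without serum replicate 3, 2 and 5 without 24 h replicate 1 or 24 h replicate 2, 10 and 6 without 24 h replicate 3, and 1 and 7 without the 3 libraries that stood apart.

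Ribosome biogenesis factors, which process and fold pre-rRNA in the nucleolus, went the opposite way. Of 55 tested, 2 were higher and 31 lower at 24 h (median -0.44), against 29.1% of all genes lower, and none was higher and 40 lower at 72 h (median -0.58), against 26.5%. Mdn1 (-2.99), Utp20 (-1.96), Heatr1 (-1.92) and Dhx33 (-1.61) fell most at 24 h. These genes are longer than the members (median span 14737 bp). The number lower was as large or larger without the 3 libraries that stood apart (36 lower at 24 h and 44 at 72 h) and with the span slope as a covariate (43 and 49). Of 19 RNA polymerase I subunits and factors 4 were higher and 6 lower at 24 h, against 34.2% and 29.1% of all genes. The count lower thus lay near that share. Polr1b (-1.78) and Polr1a (-1.59), the large catalytic subunits, were among those lower. None of the 19 was higher without serum replicate 3 or without 24 h replicate 1 (29% and 28.9% of all genes). The number higher was 2 without serum replicate 1, serum replicate 2 or 24 h replicate 2 (28.3% to 30.3% of all genes). It was 10 without 24 h replicate 3 (40%).

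Of 28 regulators of ribosomal protein output 5 were higher and 17 lower at 24 h, against 34.2% and 29.1% of all genes. These genes have a median span of 26520 bp. The counts were 5 and 17 without the 3 libraries that stood apart, and 6 and 13 with the span slope as a covariate. Myc lay at -0.24, -0.26 and -0.45 at 24 h and fell by 5.48 (SE 0.11, limma adjusted p = 2.311e-10). Mycn fell by 1.72 and Mga, a Max partner that represses, by 1.64. At 72 h Myc lay at -0.72, -0.65 and -0.50, and its difference from 24 h did not pass (-0.31, limma adjusted p = 0.05977).

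The 77 rows named for the mitochondrial ribosome, a separate machine with its own protein set, include 1 processed copy (Mrps36-ps1) and are shorter than most. At 24 h 43 were higher and 1 lower, with a median of 0.55 and a median span of 7654 bp, against 34.2% of all genes higher and 48.1% of the shortest 20%. Mrpl14 showed the largest rise (1.66, SE 0.35, limma adjusted p = 0.001865). Without the 3 libraries that stood apart 5 were higher and 8 lower (median 0.11), and with the span slope as a covariate 1 was higher and 28 lower (median -0.24). Leaving out single libraries gave 27 higher without serum replicate 1, 16 without serum replicate 3, 17 without 24 h replicate 1 and 16 without 24 h replicate 2. At the same setting without those libraries, the cytosolic members had 46 higher. The difference between these groups of genes was not tested.

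Of 16 ESC markers all 16 were above 0 in each group, and 9 were higher and 4 lower at 24 h, with changes of 1.55 in Nanog and -4.09 in Utf1. Beside this count and those of the marker lists below, 34.2% of all genes were higher and 29.1% lower at 24 h. At 72 h it was 25.7% and 26.5% of all genes. These lists are short, so their counts are given as a description. Of 15 markers of feeder fibroblasts 6 were above 0 in serum and at 24 h, Col1a2, Col3a1, Dcn, Lum and Postn stayed below 0 in each group, and the summed level was 7.44 to 7.64 in serum, 6.70 to 7.41 at 24 h and 7.37 to 8.23 at 72 h. Of the 7 tested, 4 were lower and none higher at 24 h (Acta2, change -1.62), and 5 were lower and 2 higher at 72 h (Pdgfrb, 2.18, and Fn1, 1.09) by limma. Summed primitive endoderm markers lay at 6.30 to 6.36 in serum, 5.98 to 6.17 at 24 h and 6.32 to 6.39 at 72 h. Gata4, Gata6, Sox17 and Sox7 were among those below 0 in serum and at 24 h, and Gata4 and Gata6 lay above 0 at 72 h. Gata4 was called higher at 24 h (0.57, SE 0.15, limma adjusted p = 0.006976) and at 72 h (0.92). Its mean lay above 0 only at 72 h, so its entry to the test leaned on that time. Summed trophectoderm markers were at 6.87 to 7.02 in serum and 6.92 to 7.49 at 24 h. Summed neural and mesoderm markers were at 5.75 to 5.85 and 6.02 to 6.36, with Pax6 and Mesp1 below 0 in both. At 24 h 3 of 6 tested neural and mesoderm markers were higher, among them Gsc (4.19, and 5.28 at 72 h), and 3 lower, against 1 higher and 3 lower of 7 tested endoderm and 2 and 4 of 9 tested trophectoderm markers. Gsc had a mean below 0 in serum and at 6 h and above 0 at 24 and 72 h. Its entry to the test thus leaned on the groups where it was high. The part of these lists in the members' change was not tested.

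H3K9me2 was sparse at the members. Within 3 kb of the gene start the median log2 of bound over input was -2.92 and -3.08 in serum, -2.66 and -2.78 at 24 h of 2i and -3.55 and -3.39 in LT2i. The medians over all 23889 gene starts lay higher, from -2.14 to -1.37. Of all starts 80.1% to 83.2% were below 0, and of the 85 members 83 or 84 were in each library. The exceptions were the germ-line paralogs Rpl10l, at 0.36 and 0.50 in serum, 0.19 and 0.48 at 24 h and 0.01 and -0.30 in LT2i, and Rpl39l, at 0.09 and 0.33, -0.24 and 0.15, and 0.55 and 0.77. These are also the lowest members in serum but for Rpl3l.

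**Figure D5:**
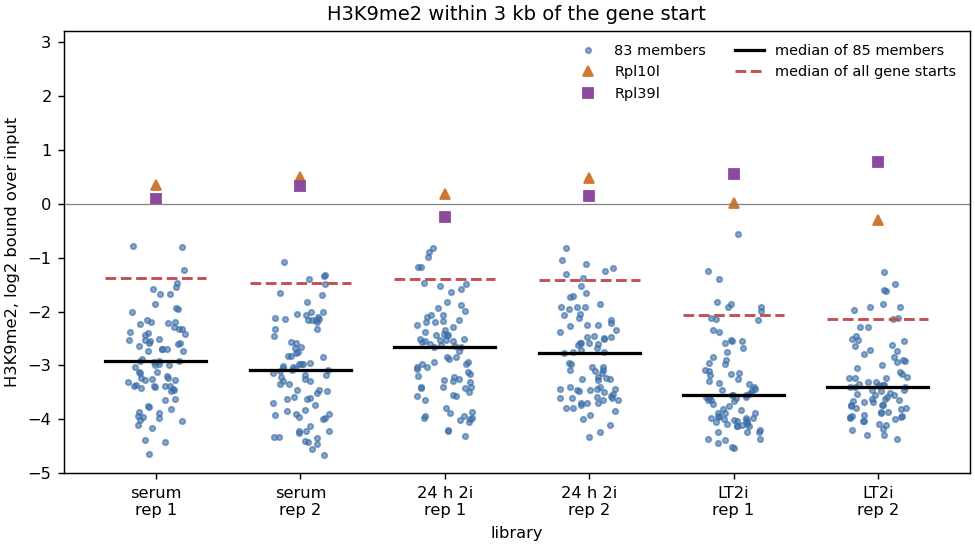
H3K9me2 within 3 kb of the gene start as log2 of bound over input (y axis) in 6 ChIP-seq libraries (x axis), for 83 members (circles), Rpl10l (triangles) and Rpl39l (squares), with the median over 85 members (solid bars) and over all gene starts (dashed bars). The member medians of -3.55 to -2.66 lie below the medians of all starts (-2.14 to -1.37), and Rpl10l and Rpl39l lie above the other members in each library.

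At 24 h of 2i against serum no member passed limma (10 had an unadjusted p under 0.05, against 15.9% of all starts), where 0.666% of all gene starts were called higher and 0.46% lower, and the median member change was 0.26 (all starts 0.05), or 0.073 without serum replicate 2, when 1 member was called higher. In LT2i 2 members were higher and 10 lower, against 5.94% and 29.0% of all starts, with a median of -0.39 (all starts -0.42). Rpl10 (1.40, SE 0.36, limma adjusted p = 0.00559) and Rpl3 (1.35, SE 0.40, limma adjusted p = 0.0132) were higher. The window of Rpl10 held only 1 bin, whereas that of Rpl3 held 4. Bound reads were few at the members, whose median input was 6.34 to 6.48 log2 reads a window. In the fits without 1 library 16.1% to 22.3% of all starts were lower. Leaving out 1 library gave 3 members lower (without LT2i replicate 2) to 8 (without serum replicate 2), with 5 without LT2i replicate 1 and 6, and a median of -0.19, without serum replicate 1. Rps27l showed the largest fall (-1.45, SE 0.37, limma adjusted p = 0.00576). Centring each library on its median moved all starts alike, from a median of -0.42 to 0.26 (25.4% higher and 6.8% lower), and the members to 0.30 (13 higher, none lower). With the single 2-kb bin of the gene start the member median was 0.13 (all starts -0.12). At Rpl39, the member whose RNA rose most, the mark moved by 0.62 at 24 h (SE 0.38, limma adjusted p = 0.447). In LT2i it moved by -0.94 at Rpl39 (SE 0.38, limma adjusted p = 0.0597), and neither change was called. At Rps27 the change was -0.59 at 24 h (SE 0.39, limma adjusted p = 0.483) and -1.27 in LT2i (SE 0.39, limma adjusted p = 0.0168).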

How the data were processed

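RNA-seq was made with the TruSeq v2 kit from E14 cells and read as 50-base single ends. The labels of these samples give the molecule as genomic DNA, whereas titles and protocol say RNA-seq, and they were treated as such. Expression values as deposited are log2 per gene. The authors had divided them by gene length and depth and matched the 75th percentile between libraries. The submitters' processing notes name Trim Galore 0.3.5 and TopHat2 2.0.11, and gene coordinates are those of GRCm38. Which counter and strand setting were used is not given in these sources. The ChIP-seq table as deposited holds log2 reads in 1026637 bins of 2 kb, which the authors scaled to a common library size, and keeps inputs apart. Values of some single genes are not reported here. Bisulfite files were not used here, and 0 columns of per-sample values of the tables used were left out.

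Genes above 0 in 3 or more of 12 libraries (12306 of 25965) were fitted with limma 3.58.1 in R 4.3.3, on the log2 values as deposited, with group means over all 12 libraries and a mean-variance trend, and p-values were adjusted by Benjamini-Hochberg over all of them at 0.05. No reads were recovered, so no count model was run. H3K9me2 was the log2 of summed bound reads minus that of the input of the same medium, in bins that overlap 3000 bp either side of the gene start. Its error leaves out that of the single inputs, and the fit has 2 bound libraries a medium. Nothing in the labels says that replicates were separate cultures, though the study's methods call the RNA-seq replicates biological, so p-values measure the spread between these samples. The fits were also run on simulated data in which each gene varied on its own, without a shared trend on gene span. That run therefore could not show how such a trend affects the counts. The members, the gene lists and the tests were chosen with earlier results of these data known. Genes named were the stalk genes, the paralogs and their partners, Rpl5, Rpl11, Rps19, Rps6, Rps3, Rpl10a, Rpl38 and Rpl41, the 3 largest rises and falls past the threshold per comparison, the 5 highest and 3 lowest in serum and up to 4 per other list. The fits without 3 libraries and with the span slope as a covariate were chosen after seeing the data.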

Additional observations from a re-analysis of the deposited data

Results flagged for a closer look

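Between 24 and 72 h in 2i the effect against serum differed by its own test in limma for 6 members. The effect at 72 h minus that at 24 h was -0.89 for Rpl22, -0.80 for Rpl11, -0.74 for Rpl37, -0.68 for Rpl12, -0.66 for Rps2 and -0.53 for Rpl30, with limma adjusted p from 0.02156 (Rpl11) to 0.04714 (Rpl12). For Rpl11 the level went from 8.12, 7.80 and 7.18 at 24 h to 6.77, 7.32 and 6.60 at 72 h, against 6.80, 6.83 and 6.85 in serum, so 72 h replicate 2 overlapped the 24 h range. Both times were compared with the same serum libraries, and the difference between them does not use serum. None of the 85 members passed this test without 24 h replicate 1, 24 h replicate 2, 72 h replicate 1 or 72 h replicate 3, while 78 did without 24 h replicate 3 and 68 without 72 h replicate 2. Of all genes 24% were higher and 30.4% lower without 24 h replicate 3, and 18.9% and 20.9% without 72 h replicate 2. 24 h replicates 1 and 2 stood apart in their slope on gene span, and so did 72 h replicate 2. Without these 3 libraries 1 member was higher and 2 were lower at 72 h than at 24 h (median -0.28), and with the span slope as a covariate 9 were higher and none lower (median 0.094).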

How the results depend on the processing

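No RNA-seq total or read count per gene is known here, and with 3 libraries a group and 3 of the 12 standing apart, the size of the members' rise is known only roughly. Members called at 24 h (79) numbered 48 (all higher) among those without a -ps row, 48 without 24 h replicates 1 and 2 and 72 h replicate 2, and 16 with the span slope as a covariate. The median change (1.16) was 0.47 with quantile normalisation, 0.69 with libraries scaled to one sum (all genes -0.37, 2042 higher and 5429 lower in place of 4208 and 3578), 0.74 with the span trend removed, 0.57 without the 3 libraries and 0.050 with the covariate. Quantile normalisation gave 59 higher and 4 lower (32.5% and 31.6% of all genes). At 6 h (0) 1 was called with only the 6 libraries compared and 2 with the covariate. At 72 h (11) the count was 7 with no filter, 26 with quantile normalisation, 27 with the span trend removed, 17 with only the 6 libraries, 38 with the replicate block, 6 without members with a -ps row, and 25 and 39 in the added fits. For 72 h against 24 h (6 lower) it was 3 lower with no filter (8.35% of all genes lower) and 76 with the replicate block (25.9%). It was 3 of the 54 members without a -ps row (15.7%). No member was higher in these fits, where 8.31% to 21.1% of all genes were. Quantile normalisation gave 1 higher and 10 lower (17.7% and 15.6% of all genes), and so did one sum (16.4% and 7.37%). With only the 6 libraries none was called (6.87% and 6.02%). The median (-0.68) was -0.24 with quantile normalisation, -0.36 with the span trend removed, -0.28 without the 3 libraries and 0.094 with the covariate. With the span trend removed 2 were higher and 5 lower (17.8% and 13.5% of all genes).

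Leaving out 1 library gave 69 to 84 members at 24 h, 2 to 26 at 72 h, 0 to 78 for 72 h against 24 h and none at 6 h. Of all genes 28.3% to 40% were then higher at 24 h and 25.6% to 31.9% lower. The median member changes ran from 0.95 to 1.51 at 24 h and from -0.996 to -0.44 for 72 h against 24 h. In the fit without the 3 libraries these medians were 0.57 and -0.28. Same-number libraries were not taken as pairs, since only 15 of 18 such pairs had r over 0.1 and the lowest was -0.25. Pairs of replicate 3 had r from 0.395 to 0.813, so an effect shared by libraries of that number may remain. The replicate block gave 82 higher and none lower at 24 h (38.9% and 32.1% of all genes). Of the 12 libraries 4 correlated best with their own number in every other group. The member share became 9.85%, 9.76%, 17.3% and 13.1% (serum, 6, 24 and 72 h) without mitochondrial rows and 5.31%, 5.06%, 8.87% and 6.39% without members with a -ps row. The H3K9me2 median at 24 h (0.26) was 0.40 over the gene span, 0.54 in the start bin and 0.073 to 0.31 with 1 library left out. In LT2i (-0.39) it was -0.072 over the span, 0.13 in the start bin, 0.30 with centring and -0.50 to -0.19 with 1 library left out. The block left both medians as they were (12 lower instead of 10 in LT2i), and the replicate numbers did not pair these libraries (r 0.04 or less).

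Signs turned at 24 h as follows. With one sum, Rpl10l was -0.25, Rps19bp1 -0.28 and Rps4y2 -0.061. With the span trend removed they were -0.37, -0.24 and -0.19, and with quantile normalisation Rps4y2 was -0.24. Without the 3 libraries Rpl10l was -0.45, Rpl22l1 -0.29 (up to 2.43 without 24 h replicate 3), Rpl39l -0.027 (up to 1.19 without 24 h replicate 3), Rps19bp1 -0.27 (up to 0.42 without 24 h replicate 3) and Rps4y2 -0.14. Without 24 h replicate 3 Rpl7l1 was 0.091 (-0.61 without the 3 libraries). With the covariate Rpl10l was -0.83, Rpl22l1 -1.42, Rpl36al -0.30, Rpl39 -0.20, Rpl39l -0.62, Rpl41 -0.085, Rpl7 -0.054, Rplp0 -0.43, Rplp1 -0.031, Rps14 -0.28, Rps19 -0.030, Rps19bp1 -0.60, Rps27 -0.037, Rps27l -0.34 and Rps4y2 -0.46. The cause was not tested. Among the genes named by rule, leaving out single libraries ended the 24 h calls of Rplp0, Rpl36al and Rps27l and the 72 h calls of Rpl17, Rpl3, Rps26 and Rps6.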
